A study of Mus musculus with 13 samples.

Results

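Small nucleolar RNA (snoRNA) host genes were followed in mouse embryonic fibroblasts (MEFs), connective tissue cells grown from embryos, in RNA bound by the proteins IMP1 and IMP2 and in total RNA of cells that lack either protein. The group was set by name as 10 long non-coding RNA genes, Gas5, Snhg1, Snhg3, Snhg5, Snhg6, Snhg8, Snhg12, Snhg15, Snhg17 and Snhg18, out of the 43629 genes in the count files. The Ensembl IDs of 8 of the 10 were found in those files, and Snhg1 and Snhg8 were not analysed here. Snhg3 had 0 to 6 counts in any of the 13 libraries and did not pass the filter on low counts, so 7 host genes were tested. RNA immunoprecipitation (IP), in which an antibody recovers a protein with its attached RNA, gave 3 IMP1 IP, 3 IMP2 IP and 3 IgG IP libraries, the last from a control immunoglobulin that measures background. The total RNA libraries are 1 each of IMP1 knockout (KO), IMP1 wild-type (WT), IMP2 KO and IMP2 WT cells. All cells are labelled as MEFs with the entry E12.5, read here as the embryonic stage. Nothing in the labels says which genotype the IP cells had, how the knockouts were made, how many embryos or clones a line came from, or whether the 3 libraries of an IP group came from separate cultures, so the p-values measure only the spread between these libraries.

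A snoRNA host gene makes a spliced RNA whose introns release snoRNAs, the guides that direct methylation (box C/D snoRNAs) and pseudouridylation (box H/ACA snoRNAs) of ribosomal RNA in the nucleolus. The spliced host RNA is exported to the cytoplasm, codes for no long protein, and is in several cases translated over short reading frames and then removed by nonsense-mediated decay. Gas5, named for its accumulation in growth-arrested fibroblasts, is the best known example, and like many host genes it starts transcription in a 5′ terminal oligopyrimidine (TOP) run, the element that ties translation of ribosomal protein mRNAs to growth signals. IMP1 (gene Igf2bp1) and IMP2 (gene Igf2bp2) are related proteins that bind cytoplasmic mRNAs and act on their localisation, stability and translation. The host RNAs were therefore set beside a list of long non-coding RNAs that stay in the nucleus, such as Malat1 and Neat1.

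In the RefSeq annotation of GRCm38.p6, 30 snoRNA genes lie within the spans of the 10 host genes. Gas5 (ENSMUSG00000053332; chromosome 1, 161034601 to 161038539) holds 8 of them, Snhg1 (chromosome 19, 8723487 to 8726326) holds 8 and Snhg12 (ENSMUSG00000086290; chromosome 4, 132308678 to 132311024) holds 4, the box H/ACA RNAs Snora16a, Snora44 and Snora61 and the box C/D RNA Snord99. Snhg3 (chromosome 4, 132351933 to 132353686), the host of Snora73a and Snora73b, Snhg5 (ENSMUSG00000097195; chromosome 9, 88521052 to 88522897) and Snhg17 (ENSMUSG00000085385; chromosome 2, 158353700 to 158361522) hold 2 each. Snhg6 (ENSMUSG00000098234; chromosome 1, 9942025 to 9944118), the host of Snord87, Snhg8 (chromosome 3, 123507552 to 123508336), the host of Snora24, Snhg15 (ENSMUSG00000085156; chromosome 11, 6525591 to 6528760) and Snhg18 (ENSMUSG00000096956; chromosome 15, 32240568 to 32244662), the host of Snord123, hold 1 each. Some host genes share bases with a neighbour, and the sources used here do not say whether reads were counted by strand. Gas5 overlaps Zbtb37 by 264 bases, Snhg6 overlaps Mcmdc2 by 1582 bases, and Snhg17 overlaps a pseudogene by 113 bases, so reads in those stretches are uncertain.

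The bases around the annotated starts are shown because the TOP run at the start is what many host genes share with ribosomal protein genes, and the choice of these genes did not use it. RefSeq promoter sequences (GRCm38.p6) were at hand for 9 of the 10 host genes, with 11 starts in all; Snhg6 had no entry. Each sequence below runs 5′ to 3′ on the transcribed strand from 20 bases before to 20 bases after the annotated start, which is base 21 of the 41. Capitals mark the longest run of a C followed by at least 4 bases that are each C or T. The windows are chr1:161035146-161035186 (plus strand) for Gas5 at the second of its 2 starts, chr4:132308658-132308698 (plus) for Snhg12, chr15:32244642-32244682 (minus) for Snhg18, chr3:123508316-123508356 (minus) for Snhg8, chr9:88522877-88522917 (minus) for Snhg5, chr11:6528740-6528780 (minus) for Snhg15 and chr2:158361502-158361542 (minus) for Snhg17 at the first of its 2 starts.
Gas5: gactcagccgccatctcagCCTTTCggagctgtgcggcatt
Snhg12: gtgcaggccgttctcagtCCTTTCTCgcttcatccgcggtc
Snhg18: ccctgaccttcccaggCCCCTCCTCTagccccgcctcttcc
Snhg8: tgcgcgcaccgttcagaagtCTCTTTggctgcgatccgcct
Snhg5: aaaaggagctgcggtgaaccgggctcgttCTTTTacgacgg
Snhg15: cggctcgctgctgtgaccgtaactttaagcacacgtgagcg
Snhg17: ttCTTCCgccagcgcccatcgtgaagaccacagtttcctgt

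Such a run lay anywhere in the 41-base window at 7 of the 11 host starts (63.6%), against 46.7% of the 32851 starts in the table. A C followed by 4 bases of C or T, also inside a longer run, began within 3 bases of the start at 5 of 11 (45.5%). These were the starts of Snhg3, Snhg8, Snhg12 and Snhg18 and the second start of Gas5, whose first has no run. The share over all starts was 11.5%. In Snhg18 the marked run itself begins 4 bases before the start, and a stretch inside it begins nearer. This narrower window was chosen after the sequences had been seen and was not tested. The same near-start run was found at 8 of 36 starts of protein-coding snoRNA host genes (22.2%) and at 1 of 11 starts of nuclear long non-coding RNAs (9.09%). Snhg5 has its run 9 bases after the annotated start, Snhg17 18 bases before its first start, and Snhg15 has none. The second start of Snhg17, not shown above, begins with TTTCCT, which has no leading C and was not counted. The letters CACGTG, searched in the 300 bases from 250 before to 50 after the start (the motif reads the same on both strands), were found at 1 of the 11 host starts, that of Snhg15, and at 7.15% of all starts. A match describes these letters only.

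Gene counts came to 17704900 to 18938144 per IMP1 IP library, 15718705 to 21756430 in IMP2 IP, 11840189 to 14548720 in IgG IP and 11430002 to 17225308 in total RNA. Reads outside annotated genes were 7.431% to 7.665% of the records in IMP1 IP, 4.697% to 5.218% in IMP2 IP, 24.155% to 25.153% in IgG IP and 4.429% to 5.1% in total RNA. Replicate 1 of IMP2 IP stood apart from its group: counts differed from those of replicates 2 and 3 by 7.702 and 8.075 times the variance that sampling alone gives, where the other pairs of one group differed by 1.143 to 2.754 times, and results that turn on it are given without it. The 10 fibroblast markers were abundant in every library, with a summed level of at least 19380 CPM. Igf2bp1 had 38 counts in the IMP1 KO library, against 476 in its WT. Igf2bp2 had 461 counts in the IMP2 KO library, against 2512 in its WT. The related genes were lower in IMP2 KO as well. Igf2bp1 had 266 counts there, against 404 in IMP2 WT, and Igf2bp3 had 224, against 497. Levels below are CPM, counts brought to a common total of assigned reads, scaled by TMM, a factor that sets the bulk of genes equal between libraries, within the 9 IP libraries or within the 4 total RNA libraries. CPM does not correct for gene length, so levels are compared between libraries and not between genes.

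IMP1 IP held fewer reads of 3 host RNAs than IgG IP and more of none. Gas5, Snhg6 and Snhg17 were 1.40-fold to 1.65-fold lower, and Snhg5, Snhg12, Snhg15 and Snhg18 did not pass the test. Across all 14076 genes tested, 31.9% were called lower in IMP1 IP and 31.7% higher, and the 3 of 7 hosts are read against that rate. The median log2 fold change of the 7 host genes was -0.34, beside -0.03 over all genes tested.

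Gas5, the growth-arrest RNA, was at 49.2, 48.6 and 49.1 CPM in IMP1 IP, against 80.3, 77.4 and 69.5 CPM in IgG IP. All 3 IMP1 IP libraries were below all 3 IgG IP libraries, and the log2 fold change was -0.63 (SE 0.0676, edgeR quasi-likelihood test, adjusted p = 4.01e-08). Snhg17 was at 30.0, 36.4 and 32.5 CPM in IMP1 IP, against 51.8, 58.6 and 53.3 CPM in IgG IP. Its groups did not overlap either, with a log2 fold change of -0.73 (SE 0.0738, edgeR adjusted p = 1.64e-08). Snhg6, the host of Snord87, was at 8.33, 8.84 and 8.66 CPM in IMP1 IP, against 12.1, 11.3 and 12.6 CPM in IgG IP. These values again did not overlap, as was so for 69.6% of all genes tested, and the log2 fold change was -0.48 (SE 0.103, edgeR adjusted p = 0.00032).

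The remaining hosts lay near the IgG level. Snhg5 averaged 24.97 ± 2.37 CPM in IMP1 IP and 23.9 ± 1.33 in IgG IP (SD, n = 3 each), and Snhg12 averaged 13.8 ± 0.806 CPM in IMP1 IP and 14.4 ± 1.69 in IgG IP. Snhg15 averaged 10.8 ± 1.29 CPM in IMP1 IP and 11.04 ± 0.593 in IgG IP. For these 3 genes the log2 fold changes were 0.06, -0.06 and -0.03, each with an SE above its own size, and each turned sign under at least 1 other setting. Snhg18 had 46 to 57 counts per library in IMP1 IP and 49 to 60 in IgG IP, the fewest of the tested hosts, and its log2 fold change of -0.34 (SE 0.175) missed the threshold (edgeR adjusted p = 0.093). Upper quartile or total count scaling, which shift the median of all genes in this comparison by -0.17 and -0.153, brought Snhg18 past the threshold at -0.51 and -0.50, and upper quartile scaling also Snhg12 at -0.23.

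**Figure D1:**
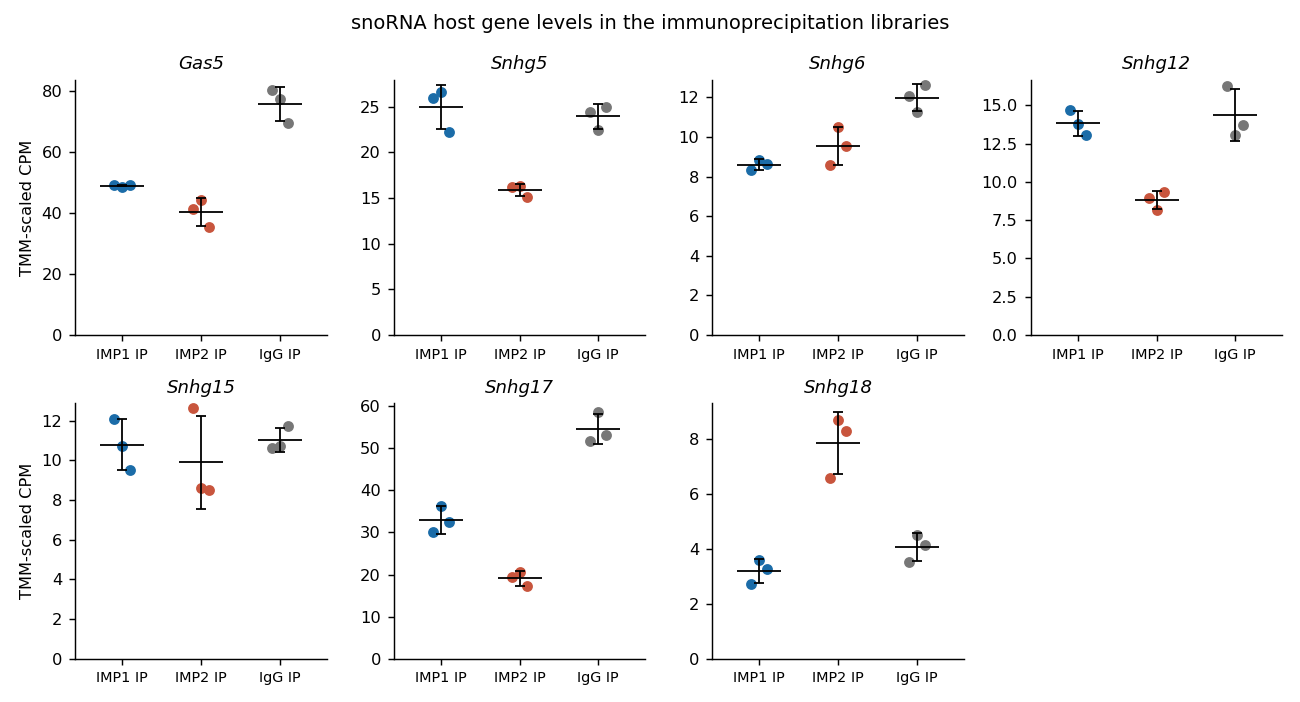
Levels of the 7 tested snoRNA host genes in the IP libraries, 1 panel a gene, as TMM-scaled CPM on axes that start at 0; coloured points are single libraries, and the black bar with whiskers is the mean with the SD of 3. Gas5 and Snhg17 are lowest in IMP2 IP, at means of 40.3 and 19.1 CPM, with IMP1 IP between that and IgG IP, while Snhg18 is highest in IMP2 IP at 7.87 CPM.

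IMP2 IP differed from IgG IP more widely, with 5 host RNAs lower, 1 higher and 1 not past the test. Snhg17 was 2.86-fold lower and Gas5 1.88-fold lower, Snhg12, Snhg5 and Snhg6 were lower with log2 fold changes of -0.71 to -0.32, and Snhg18 was 1.96-fold higher. Over all genes tested 37.3% were called lower and 40.3% higher. The median log2 fold change of the 7 hosts was -0.60, beside 0.04 over all genes tested, and it stayed between -0.78 and -0.42 under the other scalings.

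Snhg17 was at 19.3, 20.7 and 17.3 CPM in IMP2 IP, against 51.8, 58.6 and 53.3 CPM in IgG IP. This was the largest difference among the hosts, at -1.51 on the log2 scale (SE 0.0765, edgeR adjusted p = 8.57e-14), and 12% of genes tested had an equal or lower fold change. Gas5 was at 41.2, 44.4 and 35.5 CPM in IMP2 IP, with no overlap with the 69.5 to 80.3 CPM of IgG IP, and its log2 fold change was -0.91 (SE 0.0671, edgeR adjusted p = 5.09e-11). Snhg12, the host of 3 box H/ACA RNAs and Snord99, was at 8.92, 8.18 and 9.36 CPM in IMP2 IP, against 16.3, 13.1 and 13.7 CPM in IgG IP. Its log2 fold change was -0.71 (SE 0.1, edgeR adjusted p = 1.41e-06). Snhg5 was at 16.2, 16.4 and 15.1 CPM in IMP2 IP, against 24.4, 22.4 and 24.96 CPM in IgG IP. All IMP2 IP libraries were below all IgG IP libraries, with a log2 fold change of -0.60 (SE 0.0807, edgeR adjusted p = 7.11e-07).

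Snhg18, the host of Snord123, ran the other way. It was at 6.59, 8.71 and 8.29 CPM in IMP2 IP (116, 198 and 202 counts), against 3.53, 4.52 and 4.16 CPM in IgG IP (49, 53 and 60 counts). Every IMP2 IP library was above every IgG IP library, and the log2 fold change was 0.97 (SE 0.142, edgeR adjusted p = 2.12e-06), at percentile 95 of the genes tested. The call held in all 18 alternatives in which the gene could be tested, at 0.79 to 1.14. The groups of 6 of the 7 hosts did not overlap, beside 78.3% of all genes tested.

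Snhg6 averaged 9.55 ± 0.964 CPM in IMP2 IP and 11.99 ± 0.685 in IgG IP (SD, n = 3 each). Its log2 fold change of -0.32 (SE 0.0971, edgeR adjusted p = 0.00461) is small enough to hang on the scaling, since with total count scaling it was -0.15 (adjusted p = 0.163) and with no count filter -0.23 (adjusted p = 0.0554). Snhg15 was at 12.6, 8.62 and 8.50 CPM in IMP2 IP, against 10.7, 10.7 and 11.7 CPM in IgG IP. Its highest IMP2 IP value was that of replicate 1, the library that stood apart. With all libraries its log2 fold change was -0.18 (edgeR adjusted p = 0.217), and without that library it was -0.34 (edgeR adjusted p = 0.00397), which made 6 hosts lower. With all libraries kept it also passed with upper quartile scaling (-0.36, edgeR adjusted p = 0.017) and under a minimum of 10 CPM in 3 libraries (-0.35, edgeR adjusted p = 0.026), and lay between -0.36 and -0.01 over the other scalings.

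Between the proteins, 4 host RNAs were higher in IMP1 IP than in IMP2 IP and 1 was lower, beside 34.1% and 37.3% of all genes tested. Snhg17 was higher by 0.79 on the log2 scale (SE 0.0792, edgeR adjusted p = 7.37e-09), Snhg5 by 0.66 (SE 0.078, edgeR adjusted p = 1.09e-07) and Snhg12 by 0.65 (SE 0.0973, edgeR adjusted p = 3.32e-06). In each of these 3 genes all IMP1 IP libraries were above all IMP2 IP libraries; over all genes tested, the groups did not overlap in 73.2%. Gas5 was higher by 0.28 (SE 0.0687, edgeR adjusted p = 0.000886), at 48.6 to 49.2 CPM in IMP1 IP against 35.5 to 44.4 CPM in IMP2 IP. With total count scaling, which shifts the median of all genes by -0.327, it was -0.04 (edgeR adjusted p = 0.582), while upper quartile scaling and DESeq2 size factors kept the call.

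Snhg18 was the one lower in IMP1 IP, at 2.72, 3.60 and 3.28 CPM, against 6.59, 8.71 and 8.29 CPM in IMP2 IP. The groups did not overlap, and the log2 fold change of -1.31 (SE 0.142, edgeR adjusted p = 2.36e-08) stood at percentile 3 of the genes tested. Snhg6 and Snhg15 did not pass, at -0.16 (SE 0.0991) and 0.15 (SE 0.128). Without replicate 1 of IMP2 IP both did, Snhg6 at -0.23 (edgeR adjusted p = 0.0418) and Snhg15 at 0.32 (edgeR adjusted p = 0.00567), so the counts became 5 higher and 2 lower. IMP1 IP and IMP2 IP are both set against the same IgG IP libraries, which also share the scaling, filter and dispersion of this direct comparison.

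**Figure D2:**
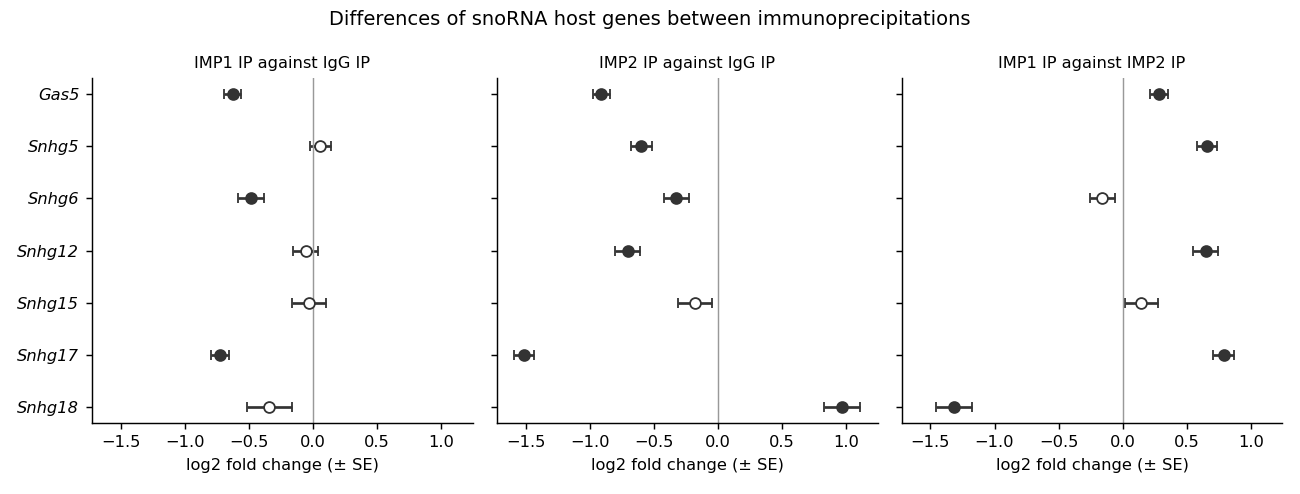
Log2 fold changes of the 7 tested host genes in 3 comparisons of the IP libraries, positive where the first group named is higher; whiskers are the SE of the edgeR fit, and filled points passed the adjusted p threshold of 0.05. Snhg17 lies farthest to the left in both comparisons with IgG IP, and Snhg18 is the one filled point to the right in IMP2 IP against IgG IP and to the left in IMP1 IP against IMP2 IP.

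The nuclear long non-coding RNAs set the scale for these differences. Of 13 listed, 11 were tested. In IMP1 IP 10 of them were lower than in IgG IP, and their log2 fold changes had a median of -2.00, beside 3 of 7 and -0.34 for the hosts. All 11 were lower in IMP2 IP, with a median of -2.79, beside -0.60 for the hosts. Of all genes tested, 31.9% were lower in IMP1 IP and 37.3% in IMP2 IP. Neat1, the scaffold of nuclear paraspeckles, averaged 65.7 CPM in IMP1 IP and 30.9 CPM in IMP2 IP, against 696.3 CPM in IgG IP, and its log2 fold changes were -3.41 and -4.50. Malat1, a nuclear speckle RNA, averaged 1547 CPM in IMP1 IP and 1042 CPM in IMP2 IP, against 6340 CPM in IgG IP, with log2 fold changes of -2.04 and -2.61. In IMP1 IP the lowest host value, -0.73 for Snhg17, was above 9 of the 11 nuclear RNAs, the exceptions being Rian at -0.25 and Firre at -0.21. The lists overlapped in IMP2 IP too, where Snhg17 at -1.51 was below Rian at -1.22 and Pvt1 at -0.93. Gas5, at -0.91, lay next to Pvt1 there. These counts and medians describe the lists, and no test compared one list with the other.

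Other genes of the same pathway were described from fixed lists, whose counts are read beside the shares of all genes tested, 31.7% higher and 31.9% lower in IMP1 IP and 40.3% higher and 37.3% lower in IMP2 IP. Of 13 further host genes, listed as non-coding, 8 were in the count files and 7 were tested: 1 was higher and 3 lower in IMP1 IP, and 1 higher and 4 lower in IMP2 IP, with medians of -0.15 and -0.91. The one higher in both was Cwf19l1, which codes for a protein in spite of the list's name, at 0.30 in IMP1 IP and 0.35 in IMP2 IP. Mir17hg, which carries microRNAs and is listed for its host transcript, had log2 fold changes of -0.92 in IMP1 IP and -2.96 in IMP2 IP. Zfas1, a box C/D host, averaged 41.2 CPM in IMP1 IP and 48.3 CPM in IMP2 IP, against 43.1 CPM in IgG IP, and passed neither test. The 44 protein-coding snoRNA hosts, most of them ribosomal protein and translation factor genes, had 13 higher and 18 lower in IMP1 IP (median -0.09) and 24 higher and 11 lower in IMP2 IP (median 0.30). Of 19 mRNAs for snoRNA particle proteins and their assembly factors, 10 were higher and 6 lower in IMP1 IP, and 14 were higher and 2 lower in IMP2 IP, with medians of 0.16 and 0.53. The largest among these in IMP2 IP were Nhp2 at 1.09 and Nop10 at 0.90, both core proteins of box H/ACA particles. Of the 17 mRNAs of nonsense-mediated decay and related decay factors, 9 were higher and 3 lower in IMP1 IP, and 8 were higher and 8 lower in IMP2 IP, with medians of 0.12 and -0.06. Smg1, the kinase of UPF1, was at 0.40 in IMP1 IP and -1.15 in IMP2 IP.

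**Figure D3:**
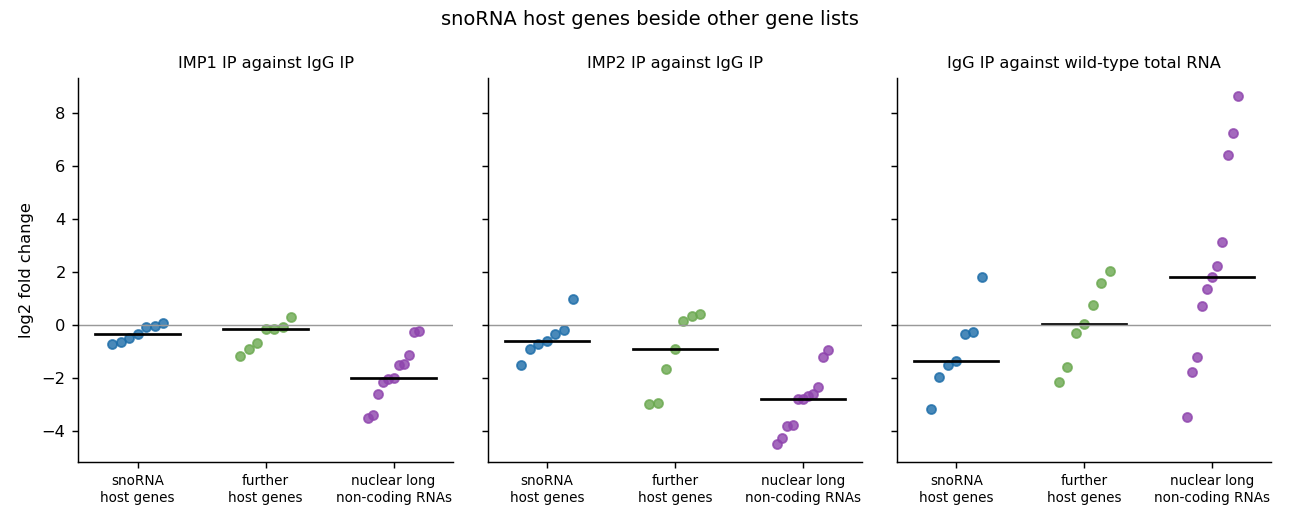
Log2 fold changes of single genes in 3 gene lists (the 7 tested host genes, 7 further host genes and 11 nuclear long non-coding RNAs), for IMP1 IP against IgG IP, IMP2 IP against IgG IP and IgG IP against WT total RNA; each point is a gene tested, in order of value, and black lines are list medians. The host genes have medians of -0.34 and -0.60 in the IPs against IgG IP, the nuclear RNAs of -2.00 and -2.79, and the order turns round in IgG IP against total RNA, at -1.36 for the hosts and 1.82 for the nuclear RNAs.

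Set against total RNA of WT cells, most host RNAs were under-represented in all 3 IPs, IgG IP included. These comparisons use 1 fit with the 9 IP libraries and both WT total RNA libraries as 1 group of 2, with TMM over those 11 libraries. In IMP1 IP 5 hosts were lower and 1 higher, and in IMP2 IP 6 were lower and 1 higher. In IgG IP 6 were also lower and 1 higher. Over all 16157 genes tested, 44.7%, 41.6% and 44.4% were lower and 41.4%, 39.5% and 43.7% higher, in the order IMP1 IP, IMP2 IP and IgG IP. The 3 comparisons share the WT total RNA libraries. The list medians were -1.38 in IMP1 IP, -2.07 in IMP2 IP and -1.36 in IgG IP, beside -0.03, 0.02 and -0.01 over all genes tested.

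Snhg18 was the lowest of the hosts in IMP1 IP and IgG IP. It averaged 3.33 ± 0.456 CPM in IMP1 IP, 7.97 ± 1.19 CPM in IMP2 IP and 4.11 ± 0.494 CPM in IgG IP (SD, n = 3 each), against 35.1 and 38.1 CPM in IMP1 WT and IMP2 WT total RNA. The log2 fold changes were -3.46, -2.19 and -3.16 in IMP1 IP, IMP2 IP and IgG IP, and the largest edgeR adjusted p was 1.06e-13. Thus Snhg18, although higher in IMP2 IP than in IgG IP, was 4.55-fold lower there than in total RNA. Snhg6 averaged 8.98, 9.67 and 12.1 CPM in IMP1 IP, IMP2 IP and IgG IP, against 50.1 and 44.9 CPM in the WT libraries, with log2 fold changes of -2.40, -2.29 and -1.97. Gas5 averaged 51.1, 40.8 and 76.6 CPM in the same order, against 193.3 and 236.7 CPM in the WT libraries, and was 4.21-fold, 5.28-fold and 2.81-fold lower. Snhg12 was lower by 1.38, 2.07 and 1.36 on the log2 scale in that order.

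Snhg17 was the exception, higher in the IPs than in total RNA. It averaged 34.4 ± 3.27 CPM in IMP1 IP, 19.3 ± 1.54 CPM in IMP2 IP and 55.1 ± 3.37 CPM in IgG IP (SD, n = 3 each), against 16.7 and 15.0 CPM in IMP1 WT and IMP2 WT. The log2 fold changes were 1.12, 0.29 and 1.80, with edgeR adjusted p-values of 1.16e-09, 0.0142 and 2.98e-13. The call in IMP2 IP was lost with DESeq2 size factors (0.22, adjusted p = 0.0568), with upper quartile scaling (0.10, adjusted p = 0.396), with the DESeq2 Wald test (0.22, adjusted p = 0.0791), without IMP2 WT (0.21, adjusted p = 0.12) and without replicate 2 of IMP2 IP (0.22, adjusted p = 0.0713).

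In IMP1 IP and IgG IP, Snhg5 and Snhg15 stood closest to their total RNA level. Snhg5 was at -0.15 in IMP1 IP, not past the test (edgeR adjusted p = 0.121), though past it with upper quartile scaling (-0.33, edgeR adjusted p = 0.00202) and total count scaling (-0.51, edgeR adjusted p = 2.4e-05), at -0.85 in IMP2 IP and at -0.25 in IgG IP. Snhg15 was at -0.35, -0.53 and -0.36 in IMP1 IP, IMP2 IP and IgG IP, and its calls in IMP1 IP and IgG IP were lost under several settings. With only the libraries compared the value in IMP1 IP was -0.30 (edgeR adjusted p = 0.0543), and the DESeq2 Wald test gave -0.34 in IgG IP (adjusted p = 0.0632). Leaving out IMP1 WT gave -0.26 (edgeR adjusted p = 0.131) in IMP1 IP and -0.29 (edgeR adjusted p = 0.0937) in IgG IP. The call in IMP1 IP was also lost without its replicate 2 or 3, at -0.34 (edgeR adjusted p = 0.06) and -0.26 (0.126), and the call in IgG IP without its replicate 1 or 2, at -0.32 (0.0843) and -0.33 (0.0789). Without replicate 2 of IgG IP the call for Snhg5 in IgG IP was lost too, at -0.20 (edgeR adjusted p = 0.0743). Of the tested hosts shown above, Gas5 (at its second start, not its first), Snhg12 and Snhg18 have a pyrimidine run led by C near the start. They were at -1.49, -1.36 and -3.16 in IgG IP against total RNA. Snhg5, Snhg15 and Snhg17, without a run led by C there, were at -0.25, -0.36 and 1.80. Snhg17 has a run of T and C at its second start, so its place depends on asking for a leading C. Snhg6, for which no start sequence was at hand, was at -1.97 and belongs to neither set. These sets were formed after the values were seen and were not tested.

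Against total RNA the nuclear RNAs had higher medians than the hosts in all 3 IPs, the reverse of the order against IgG IP. In IgG IP 8 of the 11 were higher than in WT total RNA and 3 lower, beside 43.7% and 44.4% of all genes tested. The list's median there was 1.82 on the log2 scale. In IMP1 IP 5 nuclear RNAs were higher and 5 lower (median 0.27), and in IMP2 IP 4 were higher and 5 lower (median -0.43). The host medians in those IPs were -1.38 and -2.07. The same IgG IP values enter this comparison and those of IMP1 IP and IMP2 IP with IgG IP. Xist, the RNA that coats the inactive X chromosome, averaged 739.0 CPM in IgG IP against 1.98 CPM in WT total RNA, and Malat1 averaged 6409 CPM in IgG IP against 75.0 CPM in WT total RNA. The libraries also differed in reads aligned to several places. These were 40.881% and 39.023% of the records in IMP1 WT and IMP2 WT total RNA, and 17.232% to 28.188% in the IPs. The labels do not tie the IP cells to the WT cells of the total RNA libraries. A difference between cells, a difference made by the IP and a difference in library preparation therefore cannot be told apart.

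Some snoRNA genes inside the hosts had reads of their own. Of the 30 within the host spans, 11 had IDs in the count files and 4 had a count in any library. Mature snoRNAs are mostly shorter than the fragments of a standard mRNA library, so these counts do not measure their abundance in the cell. The table used gives no strand, so a snoRNA was placed in a host by position alone.

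Snora16a, a box H/ACA RNA gene within the span of Snhg12 (chromosome 4, 132309465 to 132309600), had 20, 31 and 22 counts in IMP1 IP and 8, 5 and 4 in IMP2 IP, against 22, 17 and 34 in IgG IP. It had 2 and 2 counts in IMP1 KO and IMP2 KO, against 3 and 3 in IMP1 WT and IMP2 WT total RNA. Its log2 fold change was -2.76 in IMP2 IP against IgG IP (SE 0.363, edgeR adjusted p = 4.89e-07), where its host Snhg12 was at -0.71, and -0.29 in IMP1 IP (SE 0.266, edgeR adjusted p = 0.361). With so few counts in IMP2 IP, Snora16a passed the filter on low counts through IgG IP or IMP1 IP. Its low values in IMP2 IP are therefore set in part by the filter and describe the counts only. Per 100 host counts, Snora16a had 8.06, 14.2 and 10.4 counts in IMP1 IP and 5.10, 2.69 and 1.75 in IMP2 IP, against 9.73, 11.1 and 17.2 in IgG IP. Every IMP2 IP library was below every library of the other IP groups, and total RNA was lower still, at 0.149 to 0.515.

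Snora24, which lies in Snhg8 (chromosome 3, 123507937 to 123508066), had 50, 35 and 39 counts in IMP1 IP and 4, 3 and 4 in IMP2 IP, against 21, 27 and 14 in IgG IP. It was higher in IMP1 IP by 0.71 on the log2 scale (SE 0.243, edgeR adjusted p = 0.015) and lower in IMP2 IP, at -3.14 (SE 0.409, edgeR adjusted p = 4.31e-07). Between the proteins the log2 fold change was 3.84 (SE 0.348, edgeR adjusted p = 1.36e-09). The counts in IMP2 IP are few, and Snora24 too passed the filter on low counts through IgG IP or IMP1 IP. Its low values in IMP2 IP are therefore also set in part by the filter. The host Snhg8 was not analysed, so no host value stands beside Snora24. Snord87 in Snhg6 had 3, 5 and 3 counts in IMP1 IP and 0, 0 and 1 in IMP2 IP, against 9, 6 and 1 in IgG IP. Snord123 in Snhg18 had 5, 0 and 5 counts in IMP1 IP and 1, 0 and 1 in IMP2 IP, against 2, 0 and 3 in IgG IP, too few to compare.

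The 138 snoRNA genes in the count files, pooled after these values had been seen, were highest in IgG IP and lowest in IMP2 IP. They summed to 1054, 951 and 914 counts in IMP1 IP and 274, 280 and 280 in IMP2 IP, against 1351, 1190 and 1418 in IgG IP. Scaled, that was 56.5 to 62.3 CPM in IMP1 IP and 11.5 to 15.6 CPM in IMP2 IP, against 97.2 to 101.5 CPM in IgG IP, and the 3 groups did not overlap. Of the 32 tested, 3 were higher and 16 lower in IMP1 IP, and 0 were higher and 32 lower in IMP2 IP, with median log2 fold changes of -0.66 and -3.25. Over all genes tested, 31.7% were higher and 31.9% lower in IMP1 IP, and 40.3% and 37.3% in IMP2 IP. With so few counts in IMP2 IP, a snoRNA gene passes the filter on low counts mainly through IgG IP or IMP1 IP. The counts and medians of these 32 are therefore set in part by the filter and add no separate support. The 8 host RNAs summed to 138.4 to 148.6 CPM in IMP1 IP and 103.6 to 117.5 CPM in IMP2 IP, against 190.0 to 199.0 CPM in IgG IP, and 32.7% to 40.3% of those IP reads were from Gas5. Reads outside annotated genes were likewise highest in IgG IP and lowest in IMP2 IP. So was a single annotated gene, Gm26917, at 4577 to 5909 CPM in IMP1 IP and 868.8 to 1324 CPM in IMP2 IP, against 103500 to 113700 CPM in IgG IP. The part of either in these differences was not tested.

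**Figure D4:**
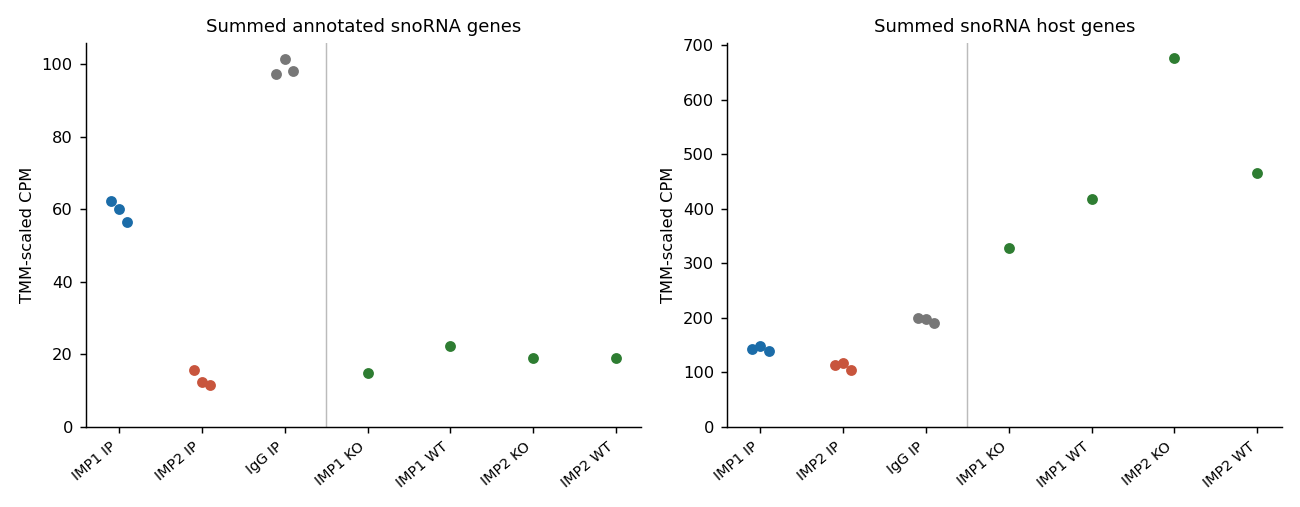
Summed TMM-scaled CPM of the 138 annotated snoRNA genes (left) and of the 8 host genes in the count files (right), each point a library, with the IP libraries left of the grey line and total RNA right of it; the IP and total RNA libraries were scaled separately. The snoRNA sum is 11.5 to 15.6 CPM in IMP2 IP against 97.2 to 101.5 CPM in IgG IP, whereas the host sum is 103.6 to 117.5 CPM against 190.0 to 199.0 CPM.

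The knockout libraries address whether host RNA levels differ where IMP1 or IMP2 is missing. Of the 3 genes Igf2bp1, Igf2bp2 and Igf2bp3, 2 were at least 1.5-fold lower in IMP2 KO and 1 in IMP1 KO. The part of the lower Igf2bp1 and Igf2bp3 levels in the IMP2 KO host values was not tested. With 1 library a genotype there is no test, and the intervals below are exact 95% counting intervals that cover counting error only. In IMP1 KO, Snhg15 and Snhg6 were at least 1.5-fold lower than in IMP1 WT and no host was as much higher, beside 12.3% and 11.5% of the 9785 genes with at least 10 CPM in 1 of the libraries. In IMP2 KO, Snhg12 and Gas5 were at least 1.5-fold higher than in IMP2 WT and Snhg6 as much lower, beside 14.8% and 15.1% of 9956 genes. The median log2 ratio of the 7 hosts was -0.42 in IMP1 KO and 0.30 in IMP2 KO, beside -0.03 and -0.02 over all genes counted.

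Snhg15 was at 8.20 CPM in IMP1 KO (97 counts), against 16.9 CPM in IMP1 WT (249 counts), a ratio of 0.486 (interval 0.380 to 0.616). In IMP2 KO it was at 10.5 CPM, against 15.1 CPM in IMP2 WT, a ratio of 0.697 (0.571 to 0.850). Snhg6 was lower in both knockouts by nearly the same factor, at 35.4 CPM in IMP1 KO against 55.9 CPM in IMP1 WT (ratio 0.634, interval 0.562 to 0.714) and at 31.4 CPM in IMP2 KO against 50.1 CPM in IMP2 WT (ratio 0.627, interval 0.561 to 0.701). In both pairs the KO library was below its WT library.

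Gas5 lay below its WT level in IMP1 KO and above it in IMP2 KO. It was at 160.6 CPM in IMP1 KO (1900 counts), against 215.4 CPM in IMP1 WT (3177 counts), a ratio of 0.746 (0.704 to 0.789). In IMP2 KO it was at 436.2 CPM (7141 counts), against 263.8 CPM in IMP2 WT (4448 counts), a ratio of 1.65 (1.59 to 1.72). Snhg12 had a ratio of 1.09 (0.966 to 1.23) in IMP1 KO, and was at 82.0 CPM in IMP2 KO against 43.8 CPM in IMP2 WT, a ratio of 1.87 (1.71 to 2.05). Snhg18 had a ratio of 0.689 (0.599 to 0.792) in IMP1 KO and of 1.23 (1.12 to 1.36) in IMP2 KO. Snhg5 was at 1.11 (0.974 to 1.27) in IMP1 KO and 1.32 (1.18 to 1.48) in IMP2 KO, and Snhg17 at 0.943 (0.784 to 1.13) and 1.23 (1.04 to 1.44). Snhg3, at 1 count in each KO against 6 and 3 in IMP1 WT and IMP2 WT, was too low to compare.

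In IMP2 KO few other host genes were past the fold. The 4 counted among the 13 further hosts had log2 ratios between -0.04 and 0.30 there, and 1 of the 38 counted protein-coding hosts was past 1.5-fold, lower. Over all genes counted in IMP2 KO, 14.8% were at least 1.5-fold higher and 15.1% lower. In IMP1 KO 6 of 38 protein-coding hosts and 6 of 16 snoRNA particle genes were at least 1.5-fold lower and none higher, with medians of -0.29 and -0.48, beside 12.3% lower and 11.5% higher over all genes counted. Markers of other cell types differed between the paired libraries as well. The summed level of the 10 such markers was 46.2 CPM in IMP1 KO against 37.8 CPM in IMP1 WT, with 8 and 2 markers at 0, and 40.4 CPM in IMP2 KO against 42.3 CPM in IMP2 WT, with 3 at 0 in each. Adgre1, a macrophage marker, had 401 counts in the IMP2 KO library against 19 in its WT, and 0 in the IMP1 KO library against 26 in its WT. Ptprc, found on all leukocytes, had 75 counts in IMP2 KO against 12 in WT and 0 in IMP1 KO against 4 in WT. Tubb3, a neuronal tubulin, had 133 counts in IMP2 KO, against 661 in its WT, and 545 in IMP1 KO, against 479 in its WT. The part of these cells, or of differences between lines, in the host RNA values was not tested, and line and genotype cannot be told apart with 1 library each.

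**Figure D5:**
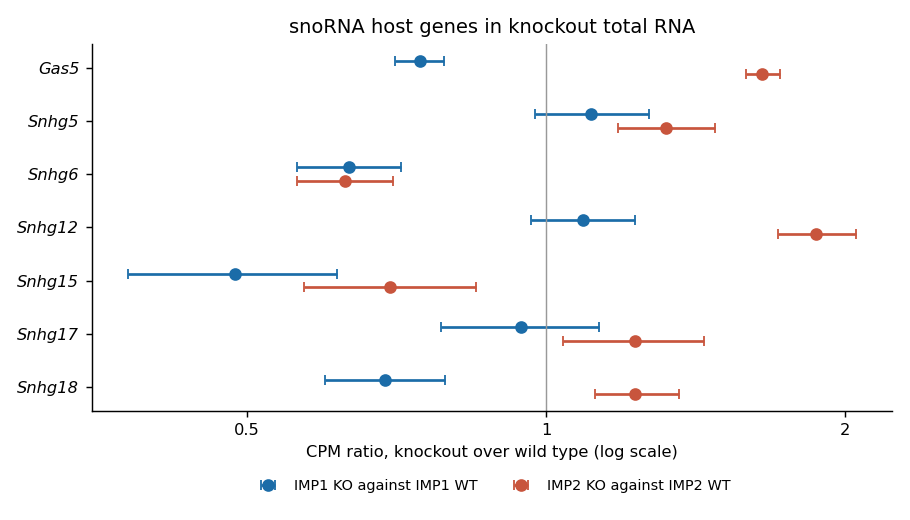
Ratio of TMM-scaled CPM in KO over WT total RNA for the 7 tested host genes, on a log axis; whiskers are exact 95% counting intervals and do not cover variation between cultures. Snhg6 and Snhg15 are below 1 in both knockouts, while Gas5 and Snhg18 lie below 1 in IMP1 KO (0.746 and 0.689) and above 1 in IMP2 KO (1.65 and 1.23).

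The 7 hosts did not share 1 profile. Over the 13 libraries, scaled together, the distance between log2(CPM + 2) profiles centred on each gene's mean was smallest for Gas5 and Snhg12 (1.08) and largest for Snhg17 and Snhg18 (6.28). From the mean profile of the hosts, single hosts lay between 1.14 (Snhg5) and 3.57 (Snhg17) away. Among 9353 other named genes with an average of at least 3 on the log2 CPM scale, the 5 closest to that mean profile were Mrpl24, a mitochondrial ribosomal protein gene, at 0.438, Ssh3 at 0.481, Zfp386 at 0.489, Blzf1 at 0.507 and Ip6k2 at 0.509. Scaled separately within the IP and total RNA libraries, Mrpl24 had 7.76 to 15.7 CPM over the IP libraries and 25.3 to 40.1 CPM in total RNA, with its highest value in IMP2 KO.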

How the data were processed

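The authors deposited whole-number read counts for each Ensembl gene, not normalized, in a file for every library. STAR and HTSeq with the mm10 build are named in the submitters' processing notes; the sources used here state no version, annotation release or strand setting. The 5 tally lines of each file were kept out of library sizes and tests, and 42462 of 43629 IDs matched a symbol. The members and gene lists were chosen with earlier results of these data known.

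The IP libraries entered 1 edgeR 4.0.16 quasi-likelihood fit (R 4.3.3; TMM, default expression filter by group, 2-sided, Benjamini-Hochberg over all genes, threshold 0.05), with a biological coefficient of variation of 3.838%. A second fit added both WT total RNA libraries (5.921%). The SE was derived from each log2 fold change and its F value. Both fits were run on simulated data with the same spread for every gene and few changed genes. That setting is unlike these data, where most genes were called, so the run does not vouch for the calls. Knockout ratios used TMM over the 4 total RNA libraries, and log2 ratios a prior count of 2. Alternatives used DESeq2 1.42.0, limma 3.58.1, other scalings and filters, a replicate block and each library left out. Named genes are all members and the leading genes of each list. RefSeq gives spans but neither exon lengths nor strand in the table used, so no level per length was computed, and snoRNAs were placed by position without the planned strand check. Intervals and low counts cover counting error only.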

Additional observations from a re-analysis of the deposited data

Results flagged for a closer look

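Gas5 lay on opposite sides of its WT level in the knockouts, with a log2 ratio of -0.423 in IMP1 KO against IMP1 WT and 0.725 in IMP2 KO against IMP2 WT. Snhg18 did the same, with log2 ratios of -0.535 in IMP1 KO and 0.302 in IMP2 KO. The difference between the knockouts was not tested, since each genotype has 1 library.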

How the results depend on the processing

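Of 865 values of single host genes under other settings, 820 kept their direction and their side of the threshold. The following values changed sign. In IMP1 IP against IgG IP, Snhg5 was -0.112, -0.095 and -0.083 with upper quartile scaling, total count scaling and a minimum of 10 CPM in 3 libraries, Snhg12 was 0.001 with no count filter and -0.11 to 0.049 with 1 library left out, and Snhg15 was 0.025 with no count filter and -0.118 to 0.052 with 1 library left out; replicate 1 of IgG IP turned Snhg12, and replicate 3 of IgG IP or of IMP1 IP turned Snhg15. In IMP1 IP against IMP2 IP, total count scaling gave -0.044 for Gas5 and -0.179 for Snhg15. Counts moved as follows. Upper quartile scaling put 5 hosts lower in IMP1 IP. Under the 10 CPM minimum Snhg18 was not tested, which left 0 hosts higher in IMP2 IP than in IgG IP and 0 lower in IMP1 IP than in IMP2 IP, and 7240 genes called in IMP2 IP against IgG IP, where 8894 were tested. Total count scaling put 2 hosts lower in IMP1 IP than in IMP2 IP. In IMP2 IP against WT total RNA, 0 hosts were higher with DESeq2 size factors, upper quartile scaling, the DESeq2 Wald test or a 1.5-fold minimum. With that minimum 3698, 6020 and 5655 genes were called in IMP1 IP against IgG IP, IMP2 IP against IgG IP and IMP1 IP against IMP2 IP, against 8948, 10927 and 10053 without it. A 2-fold minimum left 1 host lower in IMP1 KO and 0 higher and 0 lower in IMP2 KO, with 1126 and 1498 genes past the fold, against 2335 and 2971; with no filter on low values 2 hosts were lower in IMP2 KO, Snhg3 included, and 7778 and 9001 genes were past the fold. Leaving out 1 library gave 1 to 2 hosts lower in IMP1 IP against IMP2 IP and 0 to 1 higher in IMP2 IP against WT total RNA. Calls among all genes were 49.81% higher in IMP1 IP against IgG IP, but 31.6% with upper quartile and 33.33% with total count scaling; in IMP2 IP against IgG IP the shares were 51.93%, 39.88% and 62.24%, and in IMP1 IP against IMP2 IP 47.75%, with 27.82% for total count scaling. Causes other than those given by construction were not tested. Replicate numbers did not pair the IP libraries: 2 of 9 same-numbered pairs correlated above 0.1 (range -0.13 to 0.257), and 6 of 18 comparisons found a library closest to its own number. With the replicate block the counts of hosts stayed at 0 higher and 3 lower, 1 higher and 5 lower, and 4 higher and 1 lower, and 9017, 10961 and 10067 genes were called. Depth limits Snhg18 in IMP1 IP and IgG IP (46 to 60 counts) and Snhg3 throughout.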
